A study of Mus musculus with 9 samples.

Results

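The carbonic anhydrase genes Car1, Car2, Car3, Car4, Car8, Car9, Car12 and Car13 were followed along the small intestine of mice on high-fat diets. These 8 genes were picked by symbol from the 18193 genes that the array's probe sets name, and each was represented by the brightest of its probe sets, so brightness chose the probe set and is no finding. The 8 were proposed with results of these arrays already known, and the counts below are descriptions of them. RNA came from scraped mucosa of C57BL/6J males, a common inbred strain, that were 9 weeks old when the diets began and had eaten them for 2 weeks. Per the labels, fat and pancreas clinging to the gut had been taken off. Each small intestine was cut into 3 equal lengths, the distal SI3, the middle SI2 and the proximal SI1. HF-PO, the diet with the lowest P/S value, was based on palm oil, HF-OO on olive oil, and HF-SO, with the highest, on safflower oil. Every group was thus on a high-fat diet, and the study's low-fat diet is not analysed here. Each of the 9 arrays carried RNA pooled from 6 mice, 1 array for each segment and diet.

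Carbonic anhydrases are zinc enzymes that interconvert carbon dioxide and water with bicarbonate and a proton. In the gut epithelium they supply bicarbonate for secretion into the lumen and protons and bicarbonate for the exchangers that absorb salt. The mammalian family has cytosolic, mitochondrial, secreted and membrane-bound enzymes, and a few members that have lost catalytic activity.

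Car3, Car4, Car8, Car12 and Car13 were higher in SI3 than in SI1, and Car2 and Car9 were lower. Car1 was also called higher, so that all 8 passed, but at an adjusted p = 0.0499 that 4 of the alternatives lost, and it passed the filter on low values only through its 2 highest arrays. The mean signals of the ends differed by between 2.03-fold, for Car8, and 23.0-fold, for Car2. Over all 10977 genes tested, 45.5% differed between SI3 and SI1, 25.2% being higher and 20.4% lower. The test was limma's moderated test on log2(signal + 16) with the diet pool as a block, and a call is a Benjamini-Hochberg adjusted p under 0.05 over the 22519 probe sets tested. The moderated F test over all 3 segments called 7 of the 8, against 42.0% of all genes, and Car1 was the one it left out. In tissue scrapings, fewer cells of a type and less RNA per cell cannot be told apart. The 3 pools of a segment are replicates that also differ in diet, so the spread between them holds any effect of the diet. The block takes out a diet difference shared by all segments. A diet difference that varies between segments stays in the spread used by the test.

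**Figure D1:**
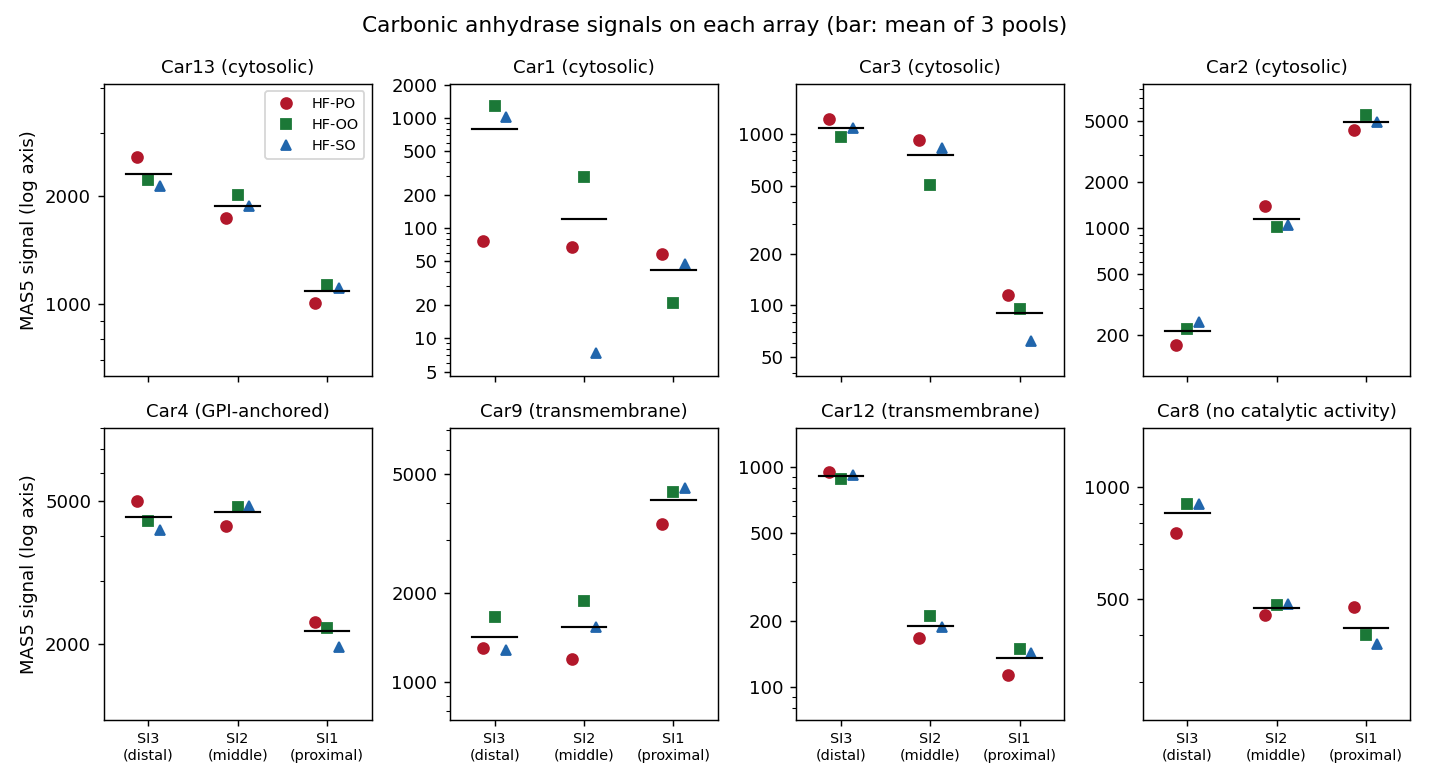
MAS5 signal (log axis, scaled separately for each gene) of the 8 carbonic anhydrase genes on each of the 9 arrays, by segment from SI3 to SI1, with the diets as symbols and the mean of the 3 pools as a bar. By mean signal, Car2 and Car9 are highest in SI1 and the other genes lowest there, while Car1 is scattered between pools, from 77.3 to 1292 in SI3.

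The 4 cytosolic enzymes among the 8 lie side by side in the genome. Car13, Car1, Car3 and Car2 are, in that order, the only protein-coding genes of chr3:14641727-14900770 in GRCm38.p6, a stretch of 259 kb. Car2, the fast and widespread cytosolic enzyme, fell the most of the 8. Its signals on HF-PO, HF-OO and HF-SO were 173.7, 218.4 and 245.0 in SI3, 1383, 1006 and 1041 in SI2, and 4344, 5437 and 4870 in SI1. No 2 segments overlapped, and every pool had the same order, with SI3 lowest and SI1 highest. The log2 change was -4.43 (SE 0.18, adjusted p = 8.77e-06) for SI3 against SI1, -2.09 for SI2 against SI1 (adjusted p = 0.001) and -2.34 for SI3 against SI2 (adjusted p = 0.000382).

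Its direct neighbour Car3, a cytosolic enzyme of low activity that is abundant in muscle, liver and fat, ran the other way. Car3 had signals of 1229, 956.2 and 1081 in SI3, 919.9, 505.6 and 827.4 in SI2, and 114.9, 94.5 and 61.9 in SI1 (HF-PO, HF-OO and HF-SO). The SI1 arrays were all below the others, and each SI3 array was above all those of SI2, though that difference did not pass the test. Car3 rose by 3.40 on the log2 scale in SI3 against SI1 (SE 0.20, adjusted p = 3.85e-05) and by 2.84 in SI2 against SI1 (adjusted p = 0.000477), and its value for SI3 against SI2 was 0.56 (adjusted p = 0.0942). A second probe set of the gene, the only other one bright enough to be tested, rose by 2.24 in SI3 against SI1 (adjusted p = 0.000119).

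Car13, a cytosolic enzyme found in several mucosal tissues, had signals of 2567, 2218 and 2138 in SI3, 1734, 2007 and 1878 in SI2, and 1011, 1133 and 1110 in SI1 (HF-PO, HF-OO and HF-SO). The segments did not overlap, and their order was SI3, SI2, SI1 in each pool. The rise was 1.08 on the log2 scale for SI3 against SI1 (SE 0.11, adjusted p = 0.000381) and 0.78 for SI2 against SI1 (adjusted p = 0.00659), and the value for SI3 against SI2 was 0.30 (adjusted p = 0.101). The call for SI2 against SI1 was lost without the HF-OO pool (adjusted p = 0.0732), without the HF-SO pool (0.0652) and with no filter on low values (0.0608). Its 3 probe sets did not all move alike. One rose by 1.05 in SI3 against SI1 (adjusted p = 0.000155), close to the brightest, and the dimmest had 0.26 (adjusted p = 0.195).

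Car1, the cytosolic enzyme best known from red blood cells and from the epithelium of the large intestine, was the least regular of the 8. Its signals on HF-PO, HF-OO and HF-SO were 77.3, 1292 and 1026 in SI3, 67.6, 293.7 and 7.3 in SI2, and 58.3, 21.0 and 47.5 in SI1. The SI3 arrays lay above those of SI1, but on HF-PO by little, and the SI2 arrays overlapped with both. For SI3 against SI1 the log2 value was 3.17 (SE 1.09) with an adjusted p = 0.0499, at the edge of the threshold. The call was lost without the HF-OO pool (2.18, adjusted p = 0.224), without the HF-SO pool (2.74, adjusted p = 0.115), with a pseudocount of 1 (3.56, adjusted p = 0.0814) and with no filter on low values (adjusted p = 0.138). Car1 also passed that filter through its brightest arrays: its mean log2 was 7.06, against a minimum of 6.80, and 6.17 over the 7 arrays other than its 2 highest.

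Red cell markers were dim in all segments. Of 11 erythrocyte markers listed, 6 were on the array with a single symbol, and their summed signal ran from 201.1 to 374.7 in SI3, from 280.4 to 397.6 in SI2 and from 207.2 to 450.0 in SI1. Hba-a1, Alas2, Slc4a1 and Epb42 stayed below 100 on every array, and none was listed at 0. In SI3, Hba-a1 had signals of 10.5, 43.2 and 32.2 (HF-PO, HF-OO and HF-SO). The part of red cells in the signal of Car1 was not tested.

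**Figure D2:**
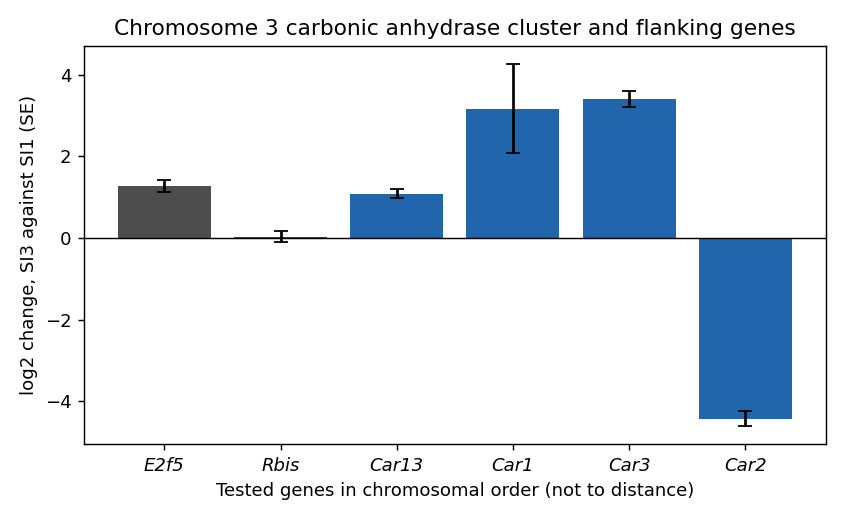
Log2 change of SI3 against SI1 (vertical axis, error bars are SE) for the tested genes of the chromosome 3 cluster and its flank, in chromosomal order and not to distance; grey bars are genes that are not carbonic anhydrases. Car13, Car1 and Car3 are positive, from 1.08 to 3.40, and Car2, at the end of the cluster, is at -4.43.

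The plot of the cluster sets these changes beside the flanking genes, chosen by position alone. E2f5, which encodes a transcription factor of the cell cycle, was 1.27 higher in SI3 than in SI1 on the log2 scale (adjusted p = 0.000621), and Rbis, next to Car13, had 0.03 (adjusted p = 0.874). No gene on the side of Car2 was tested among the 3 nearest protein-coding ones. The promoter table used here held none of the 4 clustered genes.

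The membrane enzymes face the outside of the cell. Car4 is held on the brush border by a glycolipid anchor, and Car9 and Car12 cross the membrane and carry their active site outside. Car9 is a textbook target of the hypoxia-inducible factors, which bind a core of ACGTG. Their promoters are printed because these 3 genes divide into risers and a faller, and because the core could be searched for in them. Each window runs from 250 bases before to 50 after a listed start in RefSeq (GRCm38.p6, plus strand), at chr11:84957504-84957803 for Car4, chr4:43506776-43507075 for Car9 and chr9:66713436-66713735 for Car12. Capitals mark the core ACGTG, read on either strand, which appears here as its reverse complement.
Car4: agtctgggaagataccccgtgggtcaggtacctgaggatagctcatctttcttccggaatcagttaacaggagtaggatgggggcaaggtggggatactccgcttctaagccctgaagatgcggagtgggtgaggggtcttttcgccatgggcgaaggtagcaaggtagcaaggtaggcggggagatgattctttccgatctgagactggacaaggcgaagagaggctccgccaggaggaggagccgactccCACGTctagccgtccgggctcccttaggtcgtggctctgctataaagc
Car9: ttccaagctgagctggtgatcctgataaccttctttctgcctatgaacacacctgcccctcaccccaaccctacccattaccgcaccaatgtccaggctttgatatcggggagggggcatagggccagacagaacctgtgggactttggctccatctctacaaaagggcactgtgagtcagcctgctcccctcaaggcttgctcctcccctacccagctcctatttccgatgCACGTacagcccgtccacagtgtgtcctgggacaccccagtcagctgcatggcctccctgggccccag
Car12: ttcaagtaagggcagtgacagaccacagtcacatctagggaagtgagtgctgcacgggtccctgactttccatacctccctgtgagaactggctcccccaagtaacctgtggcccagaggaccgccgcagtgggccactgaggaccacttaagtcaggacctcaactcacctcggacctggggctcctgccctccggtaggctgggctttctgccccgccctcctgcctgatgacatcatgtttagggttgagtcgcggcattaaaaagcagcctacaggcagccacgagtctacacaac

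The core was found once in Car4, beginning 2 bases after the first base of the transcript, once in Car9, beginning 18 bases before it, and not in the Car12 window. That window lies downstream of the first base of the Car12 gene, chr9:66712296, so the sequence around that base was not searched. The windows of Car4 and Car9 hold the first base of the gene. Of all 32851 promoter windows in the table, 19.6% hold it on either strand. Car4 and Car12 were higher and Car9 lower in SI3 than in SI1. Whether the hypoxia-inducible factors act on any of these genes here was not tested.

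Car4 had signals of 5016, 4414 and 4169 in SI3, 4265, 4832 and 4864 in SI2, and 2311, 2223 and 1968 in SI1 (HF-PO, HF-OO and HF-SO). SI3 and SI2 overlapped, and all their arrays were above those of SI1. The log2 change was 1.06 for SI3 against SI1 (SE 0.11, adjusted p = 0.000428) and 1.10 for SI2 against SI1 (adjusted p = 0.00187), and SI3 against SI2 had -0.04 (adjusted p = 0.831). The gene's other probe set rose by 0.73 and 0.80 in the same comparisons with SI1 (adjusted p = 0.00359 and 0.00939).

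Car9, which is expressed strongly in the stomach and bile ducts, was the mirror image. Its signals were 1304, 1653 and 1284 in SI3, 1198, 1870 and 1530 in SI2, and 3392, 4368 and 4476 in SI1 (HF-PO, HF-OO and HF-SO). Again SI3 and SI2 overlapped, here below all SI1 arrays. Car9 fell by 1.52 on the log2 scale in SI3 against SI1 (SE 0.12, adjusted p = 0.000104) and was at -1.41 in SI2 against SI1 (adjusted p = 0.000875), with -0.10 for SI3 against SI2 (adjusted p = 0.572).

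Car12 was set off in the distal segment. It had signals of 947.1, 883.7 and 916.0 in SI3, 167.0, 210.4 and 186.8 in SI2, and 113.0, 148.2 and 142.9 in SI1 (HF-PO, HF-OO and HF-SO). No segments overlapped, and the gap between SI3 and SI2 was far wider than that between SI2 and SI1. Car12 rose by 2.64 in SI3 against SI1 (SE 0.11, adjusted p = 1.04e-05), by 2.20 in SI3 against SI2 (adjusted p = 0.000125) and by 0.44 in SI2 against SI1 (adjusted p = 0.0401). The last call did not hold without any 1 of the 3 pools, where its adjusted p was 0.11, 0.164 and 0.146 without HF-PO, HF-OO and HF-SO, nor without the filter on low values (0.177). Both other probe sets of the gene were too dim to be tested.

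Car8 encodes a family member without catalytic activity, a partner of the inositol trisphosphate receptor. Its signals were 750.6, 897.7 and 900.9 in SI3, 452.6, 480.2 and 484.6 in SI2, and 476.8, 400.3 and 378.9 in SI1 (HF-PO, HF-OO and HF-SO). The SI3 arrays were above all others, and SI2 and SI1 overlapped. Car8 rose by 1.00 in SI3 against SI1 (SE 0.12, adjusted p = 0.000894) and by 0.82 in SI3 against SI2 (adjusted p = 0.00506, and 0.0677 without the HF-OO pool), and SI2 against SI1 had 0.17 (adjusted p = 0.377). Both other probe sets of the gene were too dim to be tested, and in both SI3 overlapped with SI2. In the brighter of them SI3 also overlapped with SI1. The mean of all its probe sets rose by 0.61 in SI3 against SI1 (adjusted p = 0.00517) and by 0.51 against SI2 (adjusted p = 0.0209).

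Car2 and Car12 passed the threshold at both steps along the intestine. In SI2 against SI1, 4 of the 8 were higher and 2 lower, where 7.23% of all genes were higher and 7.83% lower (15.1% in all), and Car1 and Car8 did not pass. In SI3 against SI2, Car8 and Car12 were higher and Car2 lower, where 11.5% of all genes were higher and 11.9% lower (23.4% in all). The median change over the 8 was 1.07 in SI3 against SI1, where all genes tested had 0.07, 0.52 in SI2 against SI1, against 0.02, and 0.43 in SI3 against SI2, against 0.04.

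Whether the steps differed was tested with a contrast added after these levels were seen, the change of SI3 against SI2 minus that of SI2 against SI1. It passed for 4 of the 8, where 4.23% of all genes passed. Car3 (-2.27, adjusted p = 0.0213), Car4 (-1.14, adjusted p = 0.0274) and Car9 (1.31, adjusted p = 0.0202) changed more between SI1 and SI2, and Car12 (1.76, adjusted p = 0.00686) changed more between SI2 and SI3. Car2 (-0.25, adjusted p = 0.684), Car13 (-0.48, adjusted p = 0.22), Car8 (0.65, adjusted p = 0.154) and Car1 (1.98, adjusted p = 0.595) did not pass. These 4 calls rest on all 3 pools: limma made 0 of them with any 1 pool left out, and 0 without the filter on low values. The second probe sets of Car3 (-1.12, adjusted p = 0.0966) and Car4 (-0.88, adjusted p = 0.0788) had the same sign and did not pass.

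**Figure D3:**
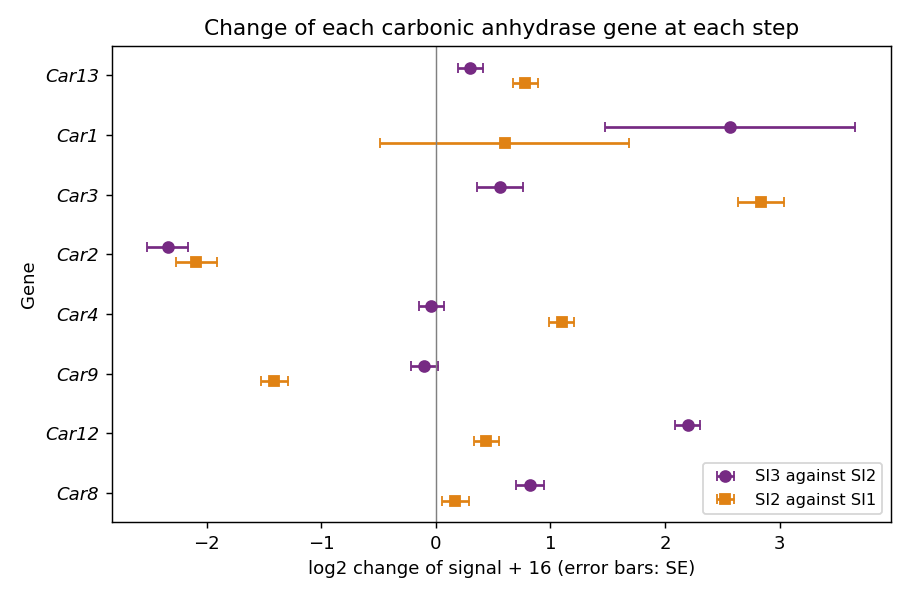
Log2 change of signal + 16 for the 8 genes at the distal step (SI3 against SI2, circles) and the proximal step (SI2 against SI1, squares), with SE as error bars. Car3, Car4 and Car9 have their larger change at the proximal step, Car12 at the distal one (2.20 against 0.44), and Car2 has similar values at each.

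Some genes of other tissues moved with Car3 and Car9. The fat cell hormone gene Adipoq had signals of 311.0, 269.8 and 307.3 in SI3, 275.7, 171.4 and 189.2 in SI2, and 55.2, 31.8 and 17.3 in SI1 (HF-PO, HF-OO and HF-SO). It rose by 2.69 in SI3 against SI1 (adjusted p = 7.87e-05), and over the 9 arrays its log2 values followed those of Car3 with r = 0.99. Retn, which encodes the fat cell hormone resistin, was too dim to be tested and lay between 157.4 and 196.9 in SI3, between 128.8 and 148.7 in SI2 and between 13.6 and 39.1 in SI1. Lep stayed below 100 on every array, and Cidec, a lipid droplet gene that enterocytes also express, fell by 1.43 on the log2 scale (adjusted p = 0.00113). Over the 9 arrays Cidec had r = -0.667 with Car3. Of 6 adipocyte markers listed, 4 were on the array with a single symbol, 0 were listed at 0, and their summed signal was 1120 to 1696 in SI3, 2020 to 2435 in SI2 and 2154 to 2333 in SI1, most of it from Cidec. The part of fat cells in the change of Car3 was not tested.

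Some stomach genes were high in SI1, most of all on the HF-PO array. Gkn2, a gene of the gastric surface, had signals of 67.1, 20.5 and 29.8 in SI3, 49.0, 24.6 and 22.7 in SI2, and 2515, 357.0 and 342.5 in SI1 (HF-PO, HF-OO and HF-SO). Of 10 stomach markers listed, 9 were on the array, 2 of the 4 tested were lower in SI3 than in SI1, and Muc5ac, Atp4a and Cblif were below 100 on every array. The tested Gkn3 (-0.97, adjusted p = 0.203) and Atp4b (-0.03, adjusted p = 0.949) did not pass. In SI1, Gkn3 was high on HF-PO alone, with 1350 against 229.6 on HF-OO and 273.4 on HF-SO. The summed signal of the 9 was 1019 to 1236 in SI3, 1165 to 1307 in SI2, and 8504, 2357 and 2184 on the SI1 arrays of HF-PO, HF-OO and HF-SO. Car9 had its lowest SI1 signal, 3392, on that HF-PO array, and without the array its log2 change in SI3 against SI1 was -1.54. The other SI1 arrays also had stomach sums above those of SI3 and SI2. The part of stomach tissue in the change of Car9 was not tested. Exocrine pancreas genes were also far brighter in SI1, with a summed signal of 1095 to 1210 in SI3, 1003 to 1464 in SI2 and 38814 to 50342 in SI1 over the 9 of 11 markers on the array. All 9 were lower in SI3 than in SI1, as was Car2, and their part in the changes of Car2 and Car9 was not tested.

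**Figure D4:**
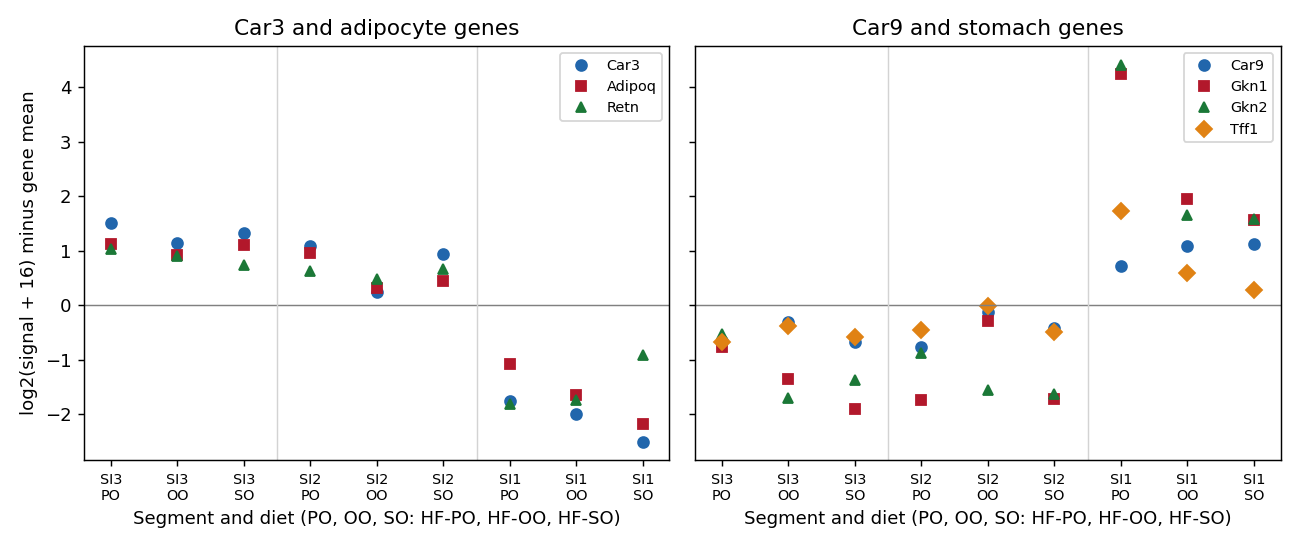
Log2(signal + 16) of each gene minus its own mean over the 9 arrays (vertical axis), by segment and diet, for Car3 with Adipoq and Retn (left) and Car9 with Gkn1, Gkn2 and Tff1 (right). Adipoq and Retn are low in SI1 together with Car3, whereas Cidec, not shown, is highest there. Gkn1, Gkn2 and Tff1 peak on the HF-PO array of SI1, where Car9 is at the lowest of its 3 SI1 values, a signal of 3392. The other stomach markers listed, not shown, were not all higher in SI1. The part of either tissue was not tested.

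Enterocyte markers were bright on all arrays, and Vil1, which encodes villin of the brush border, had signals from 30974 to 33368 in SI3, from 28098 to 30366 in SI2 and from 24595 to 29981 in SI1. It did not pass the test in SI3 against SI1 (0.24, adjusted p = 0.0962). Of the other enterocyte markers, the brush border enzyme genes Alpi (-0.61, adjusted p = 0.00431) and Lct (-0.75, adjusted p = 0.0022) were lower in SI3, and Anpep was higher (0.64, adjusted p = 0.00159). Of the tested markers of secretory cells, 6 of 7 for goblet cells and 4 of 4 for Paneth cells were higher in SI3 than in SI1, and 0 were lower. Of 11 enteroendocrine markers 4 were higher and 5 lower, and of 4 tuft cell markers 1 was higher and 0 lower. Their part in the changes of the carbonic anhydrases was not tested.

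The diets were compared on single arrays, without replicates and without a test. A gene was set apart in a diet where signal + 16 was at least 1.5-fold higher or lower than in both other diets of that segment, which happened somewhere for 10.7% of all genes and for Car1 and Car3 among the 8. In SI3, Car1 was lower on HF-PO (77.3) than on HF-OO (1292) and HF-SO (1026), a gap of -3.48 on the log2 scale from the nearer diet. Of all genes, 1.33% were set apart that way there, and the gap of Car1 was the widest of the 10977 at the pseudocount of 16. It also ranked 1 with a pseudocount of 64 or after quantile normalization, and 3 with a pseudocount of 1. Car1 passed the filter on low values only through these HF-OO and HF-SO arrays of SI3. Its mean log2 was 6.17 without them, so the rank is a description only. In SI2, Car1 was high on HF-OO and low on HF-SO (0.947% and 0.72% of genes were set apart in those ways), and in SI1 it was low on HF-OO (0.838%), where all its signals were under 60.

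Car3 was set apart in SI2 alone, where HF-OO gave 505.6 against 919.9 on HF-PO and 827.4 on HF-SO (0.774% of genes). Its second probe set did not show that difference, with 214.4 on HF-PO, 264.5 on HF-OO and 242.6 on HF-SO. For the 7 genes other than Car1, the widest log2 difference between 2 diets in any segment ran from 0.10, for Car8 in SI2 and Car12 in SI3, to 0.84 for Car3 in SI2 over the 21 values. Each gene's largest such value was 0.26 for Car13, 0.27 for Car4, 0.32 for Car8, 0.35 for Car12, 0.46 for Car2, 0.64 for Car9 and 0.84 for Car3, where the median gene had 0.37. In SI3 against SI1 the change kept its sign in each diet for these 7. Car2 had -4.52, -4.54 and -4.23 there and Car12 2.90, 2.45 and 2.55 on HF-PO, HF-OO and HF-SO. Car4 and Car9 in SI3 against SI2 and Car8 in SI2 against SI1, which did not pass, changed sign between diets.

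The other family members were dim. Car5a and Car5b, the mitochondrial enzymes, Car6, the secreted enzyme of saliva, Car10 and Car11, which lack activity, and the membrane-bound Car14 did not pass the filter on low values. Car5a, Car5b, Car6 and Car11 were below 100 on every array. The cytosolic Car7 and the membrane-anchored Car15 were tested and did not pass in any comparison, with 0.14 and -0.14 in SI3 against SI1 (adjusted p = 0.569 and 0.59). Car14 had a signal of 140.9 on HF-PO in SI1 against 35.6 on HF-OO and 30.6 on HF-SO.

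Among transporters of bicarbonate and protons, the partners of these enzymes, 19 of 22 listed genes were on the array and 10 were tested. In SI3 against SI1, 2 were higher and 5 lower, with a median of -0.21 beside 0.07 for all genes. The bicarbonate cotransporter gene Slc4a5 fell by 2.80 (adjusted p = 2.04e-05) and Slc9a3, the sodium-proton exchanger of the brush border, fell by 2.16 (adjusted p = 2.35e-05), each in the direction of Car2. Slc9a3 had mean signals of 966.8 ± 204 in SI3, 2297 ± 300.5 in SI2 and 4325 ± 288.7 in SI1 (SD, n = 3 pools). The lactate and proton carrier Slc16a1 fell by 0.64 and the anion exchanger Slc26a6 fell by 0.55, whereas Slc4a2 and Slc4a4, exchanger and cotransporter of the basolateral side, rose by 0.49 and 0.52. The chloride and bicarbonate channel Cftr had 0.22 (adjusted p = 0.127).

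Genes known to be induced by hypoxia moved both ways. Of 15 tested from a list of 16, 2 were higher in SI3 than in SI1 and 4, like Car9, were lower, where 25.2% of all genes were higher and 20.4% lower, with a median of 0.07, the same as over all genes. The glycolytic enzyme gene Hk2 rose by 1.55 (adjusted p = 0.000178) and Egln3, an oxygen sensor, by 0.64, while Higd1a fell by 0.90 and Bnip3 fell by 0.52. Vegfa, the vascular growth factor, had -0.08 (adjusted p = 0.503).

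The genes whose log2 values were most like each member's were ranked by Pearson's r over the 9 arrays, which share their pools and follow the 3 segments, so that high values are common. Car2 was followed most closely by Chchd10 and Ugdh (r = 0.996 each) and Reg1 (0.994), and Car9 by Slc37a2 (0.989), Elovl6 (0.988) and 4931406C07Rik (0.983). Car3 was nearest to Reg3g (0.991), Adipoq and Ash2l (0.99 each), and Car4 to Ptpn22 (0.993), 2610005L07Rik (0.985) and Eno3 (0.984). Car12 went with Neu1 (0.996), Sort1 and Prss32 (0.995 each), Car8 with Tceal9 and Ppp1r9a (0.996 each) and Agpat4 (0.995), and Car13 with Cd47 (0.99), Gm13648 and Rab17 (0.989 each). For Car1 the nearest genes were Fpgs (0.97), Ccar2 (0.955) and Scamp3 (0.926). Within the family, Car3 and Car4 had r = 0.956, Car8 and Car12 0.953, Car3 and Car13 0.941, and Car3 and Car9 -0.983.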

How the data were processed

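Linear signal intensity was deposited for each of 45101 probe sets and 9 arrays, and the submitters' processing notes credit it to MAS5, with no version given. Every array's 2% trimmed mean is 500, and no further normalization was applied. After 64 array controls were left out, the platform annotation gave a single symbol to 34945 of the rest. Signals were analysed as log2(signal + 16). The 22519 probe sets whose mean reached the median of all, 6.80, were tested with limma 3.58.1 in R 4.3.3, in a linear model of segment and diet pool that leaves 4 residual degrees of freedom. The pool was a block because, the labels describe 6 mice per diet whose intestines were each divided into the segments. Departures from the segment mean correlated with r from -0.049 to 0.151 within a pool and from -0.126 to 0.049 between pools. The number of arrays limits the precision. Summaries were made with pandas 2.3.3 and numpy 2.4.6 in Python 3.11.15, and figures with matplotlib 3.10.9.

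The members and gene lists were chosen with earlier results of these data known. Text names every member and the other family genes, of other lists the most changed tested genes and the markers near the lowest signals, the 3 genes most like each member, and 3 further transporters, Vegfa, Vil1, Retn and the flanking genes, which were added after their values were seen or by position. The alternatives were other pseudocounts, no filter, quantile normalization, no block, limma-trend, the mean of all probe sets, each pool left out and, added after seeing the data, the HF-PO array of SI1 left out.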

Additional observations from a re-analysis of the deposited data

Results flagged for a closer look

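The difference of Car1 between SI2 and SI1 had opposite signs on different diets. On HF-OO its log2 value for SI2 against SI1 was 3.07, on HF-SO it was -1.45 and on HF-PO 0.17, so that HF-OO and HF-SO were 4.51 apart. Each value rests on 1 array per segment and diet, and the difference was not tested. The signals behind it were 293.7 in SI2 and 21.0 in SI1 on HF-OO, and 7.3 in SI2 and 47.5 in SI1 on HF-SO. The last 3 of these 4 lie below the median signal of every array, which ran from 94.4 to 105.9, and were not shown to be above background.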

How the results depend on the processing

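The fit without the replicate block for the diet pool called 8, 6, 3 and 7 of the 8 genes in SI3 against SI1, SI2 against SI1, SI3 against SI2 and the F test, the same counts as with it, and 3 in place of 4 for the difference between the steps, where Car9 was lost. Limma-trend called 6 genes in place of 3 in SI3 against SI2. Shares of all genes are given for the main fit alone, so counts under the alternatives describe the 8 genes only. The difference between the steps gave 0 calls without the filter on low values, which tests more probe sets, 0 with any pool left out, 1 without the HF-PO array of SI1 and 2 with the mean of all probe sets, under which Car3 and Car12 fell below the filter. Genes set apart in a diet numbered 1 in place of 2 with the mean of all probe sets and at a 2-fold threshold. With each pool left out in turn, counts ran from 7 to 8 in SI3 against SI1, from 4 to 5 in SI2 against SI1 and from 2 to 3 in SI3 against SI2. Values that changed sign were those of Car1 in SI2 against SI1 (-0.64 to 1.62), of Car4 in SI3 against SI2 (-0.18 to 0.05), and of Car1 (-0.50 to 3.46) and Car2 (-0.53 to 0.24) for the difference between the steps; none of these had passed the test, and the cause was not tested. Of 344 single-gene values, 302 kept direction and call, 33 lost the call, 4 gained it and 5 changed sign.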
